A study of Homo sapiens with 8 samples.

Results

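Interferon-stimulated genes are the genes that a cell switches on after interferons bind their receptors, and the peaks of open chromatin nearest to 47 of them were followed here in human myeloma cells under a cereblon-binding drug and a bromodomain inhibitor. The 47 genes were listed with earlier results of these data known. Their peaks were all those for which the authors' annotation names one of them as the nearest transcript, and 36 of the 47 genes had at least 1 peak. The gene beside a distal peak is the nearest one, and which gene a peak regulates was not measured. Together they held 75 of the 62528 peaks of the series, of which 42 were promoter peaks, within 1000 bp of the annotated transcript start, and 33 were distal. The other 11 genes (IFIT1, IFIT2, IFIT3, IFIT5, IFITM1, IFITM2, OAS2, OAS3, TRIM22, IFI27 and IFI44) were named as nearest gene for no peak and were dropped. DTX3L had a distal peak and no promoter peak, 17 genes had a single peak, and IRF2 had the most with 7.

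ATAC-seq, which uses a transposase to place sequencing adapters where DNA is open, was done in JJN3 and KMS11, established lines from multiple myeloma, a cancer of plasma cells. Each line was cultured for 48 h with pomalidomide at 200 nM, with GNE-781 at 40 nM, with both or with the solvent DMSO, and each line and treatment gave 1 library, 8 in all. The design text asks how the drugs, alone and together, change open chromatin, and it also names cells with added BATF or eGFP, not analysed here. Pomalidomide directs the lymphoid transcription factors IKZF1 and IKZF3 to degradation through cereblon, and GNE-781 occupies the bromodomains of EP300 and CREBBP.

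Type I interferons act through the kinases JAK1 and TYK2 and the complex ISGF3, which includes STAT2 and IRF9 and binds the interferon-stimulated response element in the promoters of these genes. Their products sense viral RNA (DDX58, also called RIGI, and IFIH1), block viral entry, copying and release, or slow the response down, as USP18 does at the receptor. Immunomodulatory drugs are known to raise the expression of several of these genes in B-lineage tumours, where IKZF1 can hold them down.

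Promoter windows of 300 bases, 250 before and 50 after the RefSeq start (GRCh38.p14), were read for 38 of the 47 genes. They are shown for the 3 genes with a promoter peak that changed under a drug (DDX58, PARP9, ISG20) and for the 5 others with the most open promoters among those that hold the response element. Capitals mark the core of that element (GAAA, any 2 bases, GAAA) or the composite site of ETS and IRF factors (GGAA, any 2 bases, GAAA) on either strand, and all sequences run 5′ to 3′ on the strand of the gene.
DDX58 (RIGI), chr9:32526147-32526446, minus strand: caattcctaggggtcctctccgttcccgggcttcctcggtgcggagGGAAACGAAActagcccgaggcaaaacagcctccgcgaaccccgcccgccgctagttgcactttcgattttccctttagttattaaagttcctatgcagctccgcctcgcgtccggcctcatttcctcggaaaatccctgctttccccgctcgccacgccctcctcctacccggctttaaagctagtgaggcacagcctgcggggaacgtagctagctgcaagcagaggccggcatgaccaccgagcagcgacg
PARP9, chr3:122564251-122564550, minus strand: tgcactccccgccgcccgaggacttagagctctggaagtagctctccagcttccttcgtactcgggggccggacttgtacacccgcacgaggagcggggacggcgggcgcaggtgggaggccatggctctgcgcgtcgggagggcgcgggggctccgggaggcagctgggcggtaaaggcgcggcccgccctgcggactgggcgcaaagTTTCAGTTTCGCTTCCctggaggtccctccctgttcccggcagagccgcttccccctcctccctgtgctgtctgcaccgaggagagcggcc
ISG20, chr15:88638766-88639065, plus strand: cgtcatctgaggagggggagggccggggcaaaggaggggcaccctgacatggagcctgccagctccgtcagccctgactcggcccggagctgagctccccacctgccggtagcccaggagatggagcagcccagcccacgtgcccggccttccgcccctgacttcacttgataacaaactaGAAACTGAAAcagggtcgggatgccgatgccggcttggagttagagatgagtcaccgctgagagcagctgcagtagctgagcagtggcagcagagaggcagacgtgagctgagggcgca
HERC5, chr4:88456869-88457168, plus strand: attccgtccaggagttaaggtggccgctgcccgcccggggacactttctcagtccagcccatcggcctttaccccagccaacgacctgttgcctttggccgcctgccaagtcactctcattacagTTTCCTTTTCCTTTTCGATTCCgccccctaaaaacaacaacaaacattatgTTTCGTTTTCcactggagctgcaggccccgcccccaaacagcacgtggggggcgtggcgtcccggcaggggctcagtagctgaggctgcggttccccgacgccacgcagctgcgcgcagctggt
IFI6, chr1:27672143-27672442, minus strand: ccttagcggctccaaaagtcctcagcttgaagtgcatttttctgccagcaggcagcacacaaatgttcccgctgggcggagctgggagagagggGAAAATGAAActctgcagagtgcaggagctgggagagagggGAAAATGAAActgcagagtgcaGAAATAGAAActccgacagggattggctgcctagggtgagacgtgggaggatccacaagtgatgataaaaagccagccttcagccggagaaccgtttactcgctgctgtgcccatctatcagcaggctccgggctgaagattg
IFIH1, chr2:162318635-162318934, minus strand: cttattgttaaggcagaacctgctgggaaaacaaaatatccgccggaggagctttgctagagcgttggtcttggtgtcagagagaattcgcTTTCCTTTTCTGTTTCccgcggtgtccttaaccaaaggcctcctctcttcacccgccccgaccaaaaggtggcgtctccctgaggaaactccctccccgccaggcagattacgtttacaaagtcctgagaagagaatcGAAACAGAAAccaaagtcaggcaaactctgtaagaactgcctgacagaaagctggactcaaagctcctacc
BST2, chr19:17405581-17405880, minus strand: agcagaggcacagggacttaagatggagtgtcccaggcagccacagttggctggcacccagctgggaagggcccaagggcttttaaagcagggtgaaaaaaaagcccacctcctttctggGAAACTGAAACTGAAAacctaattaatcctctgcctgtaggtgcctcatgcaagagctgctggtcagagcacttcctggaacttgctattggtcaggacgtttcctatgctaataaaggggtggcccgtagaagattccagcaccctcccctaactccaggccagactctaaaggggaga
ISG15, chr1:1013247-1013546, plus strand: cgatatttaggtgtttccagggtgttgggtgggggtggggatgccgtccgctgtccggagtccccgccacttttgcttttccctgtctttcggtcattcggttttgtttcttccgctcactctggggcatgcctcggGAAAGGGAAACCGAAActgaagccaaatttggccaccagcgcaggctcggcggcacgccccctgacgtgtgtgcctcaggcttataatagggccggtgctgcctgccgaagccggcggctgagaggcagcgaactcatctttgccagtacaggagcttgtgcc

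The core of the response element stood in the windows of 23 of the 38 genes (60.5%), against 4.38% of all 27305 genes with a window. For the composite site the shares were 12 of 38 genes (31.6%) and 3.47%, for the STAT site TTCNNNGAA 11 of 38 (28.9%) and 9.38%, and for the AP-1 site TGANTCA 6 of 38 (15.8%) and 9.37%, each searched on both strands. Some genes have several RefSeq starts, and a gene was counted if any of its windows matched. There were 54 windows for the 38 genes and 35116 for all genes. The first pair of motifs can overlap, as they do in the PARP9 window above. The DDX58 window held 0 matches to the core and 1 to the composite site, and those of HERC5, IFI6 and IFIH1 held 3 cores each. A match is a description of letters, and binding was not measured.

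In each line the pomalidomide-treated libraries were the deeper ones. The JJN3 libraries held 3218581 counts in peaks with pomalidomide and 2060036 with both drugs, against 1582277 with GNE-781 and 1366628 with DMSO. The KMS11 libraries held 4586400 with pomalidomide and 5435673 with both drugs, against 2981408 with GNE-781 and 3786690 with DMSO. Depth thus moved with pomalidomide, and its part in the results was not tested. The median peak of the 75 had 16 to 68 counts in a library, no library had 0 counts at any of them, and 9 had fewer than 4 counts in some library. Of 10 plasma cell marker genes 9 had a peak, TNFRSF17 being the exception, and MS4A1, CD3D, CD14 and LYZ had none. Summed over all peaks of a list, plasma cell markers ran at 739 to 1360 CPM with pomalidomide and 795 to 1400 CPM without, those of T and NK cells (6 of 9 genes with a peak) at 101 to 196 and 75.8 to 159 CPM, and those of myeloid cells (4 of 8) at 48.3 to 66.4 and 40.6 to 48.7 CPM. The same sums were 133 to 339 CPM with pomalidomide and 135 to 331 CPM without for B cell markers (3 of 7), and 203 to 324 and 174 to 251 CPM for stromal and endothelial markers (8 of 8); the part of these cells' markers in the results was not tested. CPM values are counts scaled to library totals with TMM, changes are log2 ± SE from 1 model over all 8 libraries with the line as a block, and adjusted p comes from the quasi-likelihood test of edgeR, adjusted by Benjamini-Hochberg over all 62234 peaks tested, with a call under 0.05. All 75 peaks passed the filter on low counts.

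Promoters of interferon-stimulated genes were about as open as other promoters, with a median of 30.7 CPM per kb of peak over 42 promoter peaks and of 32.9 over all 15930. For the 33 distal peaks the median was 21.8 CPM per kb, and for all 46598 distal peaks it was 21. The most open promoters were those of ISG20, an exonuclease that degrades viral RNA (61.4 ± 7.71 CPM per kb, mean ± SD over 8 libraries), PARP9, partner of the ubiquitin ligase DTX3L (47.1 ± 15.1), HERC5, the ligase that attaches ISG15 to proteins (44.5 ± 14.7), and the transcription factor genes IRF7 (44 ± 8.28) and IRF2 (43.3 ± 10.2). The last 4 lay within each other's spread. The least open were SP110, a nuclear body protein (11.4 ± 6.77 CPM per kb), EIF2AK2, the kinase PKR that halts translation (17 ± 3.33), CMPK2, a mitochondrial nucleotide kinase (17.3 ± 14), the antiviral GTPase gene MX1 (17.7 ± 8.34) and IFI35 (18.3 ± 3.38). Much of the spread at CMPK2 and SP110 lay between the lines, as the map of promoters by library shows.

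**Figure D1:**
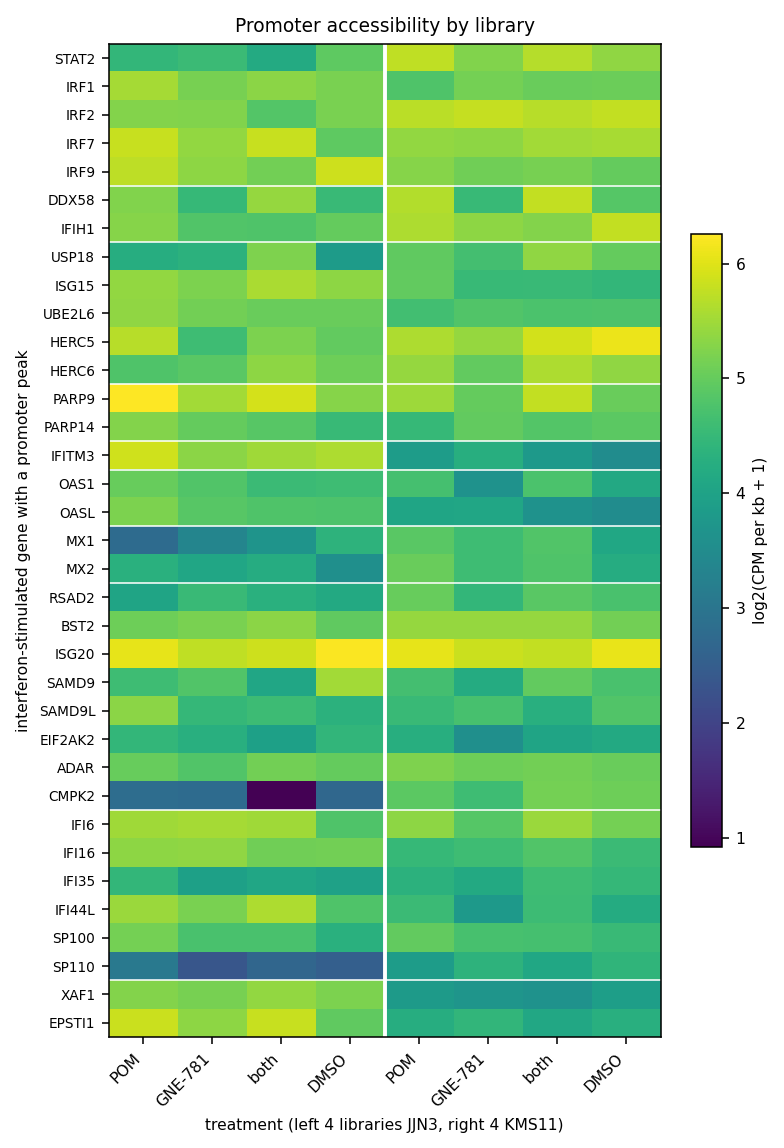
Promoter accessibility of the 35 interferon-stimulated genes with a promoter peak, in log2(CPM per kb + 1), with genes down the page by role (white lines part the roles) and the 8 libraries across, JJN3 left and KMS11 right. ISG20 was high in all 8 libraries at 61.4 CPM per kb on average, and CMPK2 and SP110 were low in JJN3.

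Pomalidomide alone changed 2 of the 75 peaks, one in each direction, and neither was a promoter peak. A peak inside USP18, the protease that strips ISG15 from proteins and blocks the interferon receptor, opened, and a peak 17091 bp upstream of SAMD9L, which restrains viral protein synthesis, closed. Over all peaks tested 1.25% were called in this comparison, against 2.67% of these. The USP18 peak lies 14072 bp past the start, at chr22:18163971-18165063 (GRCh38). It had 17.3 CPM with pomalidomide in JJN3 and 36.9 in KMS11, against 8.27 CPM with DMSO in JJN3 and 14.5 in KMS11. In both lines the pomalidomide library was the higher, though the KMS11 DMSO and JJN3 pomalidomide values lie close together. The fitted change was 1.21 ± 0.29 (edgeR adjusted p = 0.0151), and the promoter peak of the same gene gave 0.03 (adjusted p = 0.989). At the SAMD9L peak, chr7:93165460-93165776, pomalidomide left 6.66 CPM in JJN3 and 4.29 in KMS11, against 21.0 CPM with DMSO in JJN3 and 12.9 in KMS11, and the ranges of the drug and DMSO did not overlap (-1.61 ± 0.36, adjusted p = 0.00861). Without the JJN3 DMSO, the KMS11 DMSO or the KMS11 pomalidomide library neither peak was called, and without the JJN3 pomalidomide library USP18 was the only call. Over the 8 libraries left out in turn, the USP18 change ranged over 0.67 to 1.49 and that of SAMD9L over -1.76 to -1.55.

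The promoter peaks of PARP9 (0.70 ± 0.22, adjusted p = 0.0949) and DDX58 (0.78 ± 0.25, adjusted p = 0.0995) and an IRF2 peak 25249 bp into the gene (0.96 ± 0.31, adjusted p = 0.122) had the next lowest p-values and did not pass. At that IRF2 peak, pomalidomide gave 27.7 CPM in JJN3 and 14.1 in KMS11, against 9.02 CPM with DMSO in JJN3 and 10.4 in KMS11. IRF2 competes with IRF1 at the same DNA sites. The median change of the 42 promoter peaks was 0.12, beside 0.04 for all promoter peaks, and 32 of them (76.2%) had a fitted change above 0, beside 56% of all promoter peaks. For the 33 distal peaks the median was 0.03, beside 0 for all distal peaks, and 17 (51.5%) were above 0, beside 50.2%.

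With GNE-781 alone, edgeR called 0 of the 75 peaks, beside 0.0209% of all peaks. At an unadjusted p under 0.05 there were 7 of 75, beside 6.58% of all peaks, and DESeq2 also called 0. The same SAMD9L peak had the lowest p, with 7.69 CPM under GNE-781 in JJN3 and 4.85 in KMS11, against the DMSO values of 21.0 CPM in JJN3 and 12.9 in KMS11 (-1.42 ± 0.39, adjusted p = 0.28). Next came a peak 28822 bp past the start of MX1 (1.34 ± 0.49, adjusted p = 0.526), with 5.77 CPM in JJN3 and 12 in KMS11 under GNE-781, against 3.76 and 3.88 CPM in the DMSO libraries of JJN3 and KMS11. The HERC5 promoter followed (-0.62 ± 0.23, adjusted p = 0.526), with 23.1 CPM under GNE-781 in JJN3 and 41.1 in KMS11, against 30.1 CPM with DMSO in JJN3 and 67.0 in KMS11. In each of these 3 peaks both lines moved the same way, and none passed the test.

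Under both drugs 4 of the 75 peaks changed (5.33%, beside 4.79% of all peaks): the promoters of DDX58 and PARP9 opened, and the SAMD9L peak and a peak at the edge of the ISG20 promoter closed. DDX58 encodes the sensor RIG-I, which recognises viral RNA ends in the cytoplasm. Its promoter peak, chr9:32526085-32526764, had 28.1 CPM with both drugs in JJN3 and 36.3 in KMS11, against 15.0 CPM with DMSO in JJN3 and 18.9 in KMS11 (0.93 ± 0.25, adjusted p = 0.0153). Every value with both drugs was above every DMSO value. The PARP9 promoter peak, chr3:122564145-122564899, also covers the RefSeq start of the divergent gene DTX3L. It had 45.1 CPM with both drugs in JJN3 and 40.1 in KMS11, against 28.6 CPM with DMSO in JJN3 and 24.1 in KMS11, again without overlap (0.69 ± 0.22, adjusted p = 0.0468). The SAMD9L peak fell to 3.39 CPM in JJN3 and 3.38 in KMS11 with both drugs, against 21.0 and 12.9 CPM in the DMSO libraries of JJN3 and KMS11 (-2.18 ± 0.39, adjusted p = 0.000183), its lowest values of the series in both lines. The ISG20 peak, chr15:88640035-88640413, lies 992 bp past the start, outside the window printed above, and had 17.5 CPM with both drugs in JJN3 and 13.7 in KMS11, against 35.3 CPM with DMSO in JJN3 and 22.5 in KMS11 (-0.84 ± 0.26, adjusted p = 0.0415). The main ISG20 promoter peak gave -0.16 (adjusted p = 0.728).

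The SAMD9L call under both drugs was made with each of the 8 libraries left out in turn (adjusted p up to 0.0221). The calls of DDX58 and PARP9 were lost without either DMSO library or either library of the combination (adjusted p up to 0.303 for DDX58 and 0.592 for PARP9). With 1 library left out the change of DDX58 ranged over 0.86 to 0.96 and that of PARP9 over 0.45 to 0.86. The ISG20 call held only without either GNE-781 library (adjusted p up to 0.271). The count was 2 without the JJN3 library of the combination and 1 without that of KMS11 or the KMS11 DMSO library. With DESeq2's size factors 1 peak was higher and 3 were lower, and with library totals or cyclic loess offsets 2 were higher and 1 was lower. The median change was 0.12 over the 42 promoter peaks and -0.16 over the 33 distal peaks, beside 0 for all promoter and 0 for all distal peaks. All 3 comparisons with DMSO share the same DMSO libraries, so their values for a peak are not independent.

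**Figure D2:**
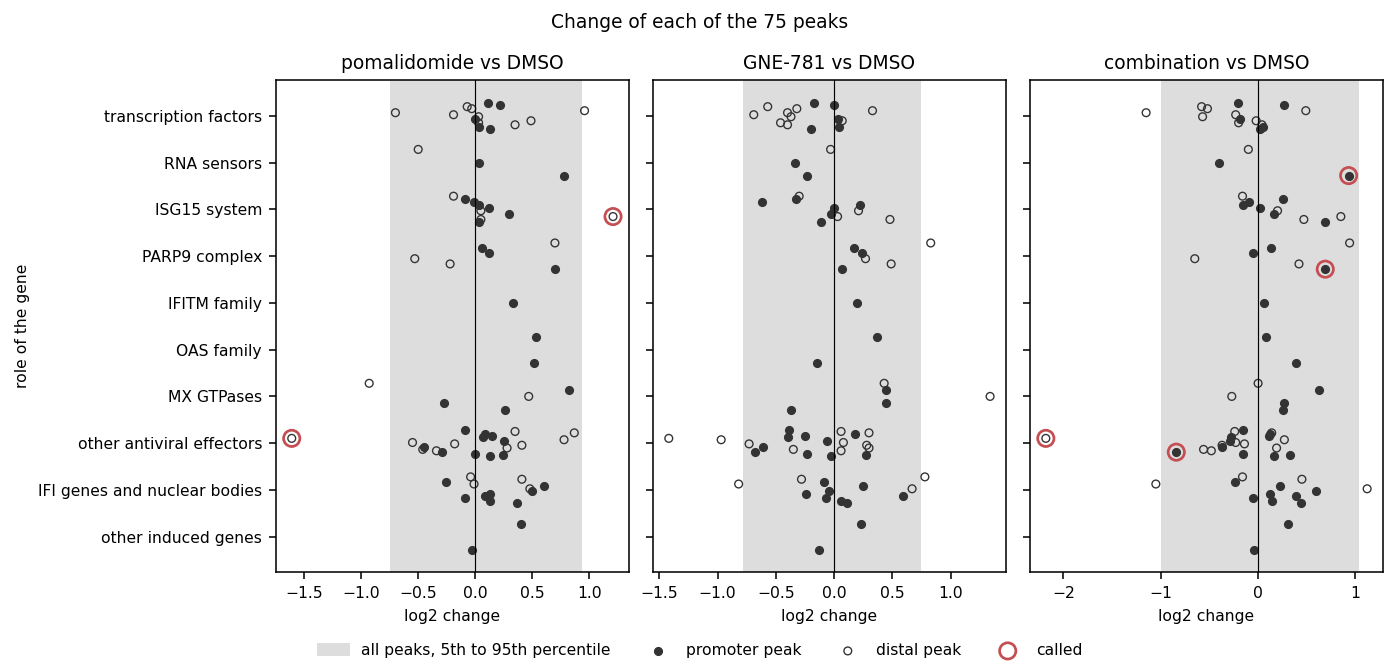
Fitted log2 change of each of the 75 peaks against DMSO for pomalidomide, GNE-781 and the combination, by role of the gene (filled points promoter peaks, open points distal peaks, red rings peaks called at an adjusted p under 0.05), with the 5th to 95th percentile of all peaks in grey. The SAMD9L peak 17091 bp upstream gave -1.61 under pomalidomide, -1.42 under GNE-781 and -2.18 under both, and DDX58, the ringed RNA sensor, gave 0.93 under both.

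Setting the 4 libraries with pomalidomide against the 4 without, within lines, called 5 peaks (6.67%, beside 5.28% of all peaks): 4 higher, beside 3.93% of all peaks, and 1 lower, beside 1.36%. The DDX58 promoter rose by 0.97 ± 0.18 (1.96-fold, adjusted p = 0.000129). It had 25.3 CPM with pomalidomide and 28.1 with both drugs in JJN3, against 14.7 with GNE-781 and 15.0 with DMSO. In KMS11 the values were 33.2 and 36.3 CPM with pomalidomide and with both drugs, against 14.9 with GNE-781 and 18.9 with DMSO. All 4 libraries with the drug were above all 4 without it, across lines as well as within them. The log2 ratio of pomalidomide over DMSO was 0.73 in JJN3 and 0.79 in KMS11, and that of both drugs over GNE-781 was 0.90 and 1.25, each from single libraries.

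The USP18 peak rose by 1.01 ± 0.21 (2.02-fold, adjusted p = 0.000796). Its values were 17.3 CPM with pomalidomide and 18.4 with both drugs in JJN3, against 14.1 with GNE-781 and 8.27 with DMSO. In KMS11 they were 36.9 and 23.9 CPM with pomalidomide and with both drugs, against 11 with GNE-781 and 14.5 with DMSO. Within each line the groups did not overlap. PARP9 rose by 0.66 ± 0.15 (1.58-fold, adjusted p = 0.0035), with 57.0 CPM under pomalidomide and 45.1 under both drugs in JJN3, against 34.0 with GNE-781 and 28.6 with DMSO. In KMS11 it had 32.6 and 40.1 CPM with pomalidomide and with both drugs, against 23.3 with GNE-781 and 24.1 with DMSO, so the groups were apart in each line.

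Near SAMD9L a peak 8387 bp upstream (chr7:93156756-93157250) rose by 1.01 ± 0.24 (adjusted p = 0.00547) while the one at 17091 bp fell by 1.18 ± 0.29 on the log2 scale (adjusted p = 0.00679). The nearer one had 45.3 CPM with pomalidomide and 28.1 with both drugs in JJN3, against 12.2 with GNE-781 and 17.3 with DMSO. In KMS11 it had 6.43 and 5.70 CPM with pomalidomide and with both drugs, against 2.26 with GNE-781 and 6.47 with DMSO, so that the groups overlapped in KMS11. The farther one had 6.66 and 3.39 CPM in JJN3 and 4.29 and 3.38 in KMS11 with pomalidomide and with both drugs, against 7.69 (GNE-781) and 21.0 (DMSO) in JJN3 and 4.85 and 12.9 in KMS11. There the DMSO libraries stood apart and the other 3 treatments lay together. The promoter peak of SAMD9L gave 0.01 (adjusted p = 0.994).

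DDX58 was called with each library left out in turn (adjusted p up to 0.0156), and DESeq2 called it as well, as its only peak of the 75. USP18 lost its call without the KMS11 pomalidomide or the KMS11 GNE-781 library, PARP9 without the JJN3 pomalidomide library or the KMS11 library of the combination, the nearer SAMD9L peak without the JJN3 DMSO or pomalidomide library, and the farther one without the KMS11 pomalidomide library. Without either library of pomalidomide alone 3 peaks were called. These p-values measure the spread between single libraries, which the labels do not say came from separate cultures.

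**Figure D3:**
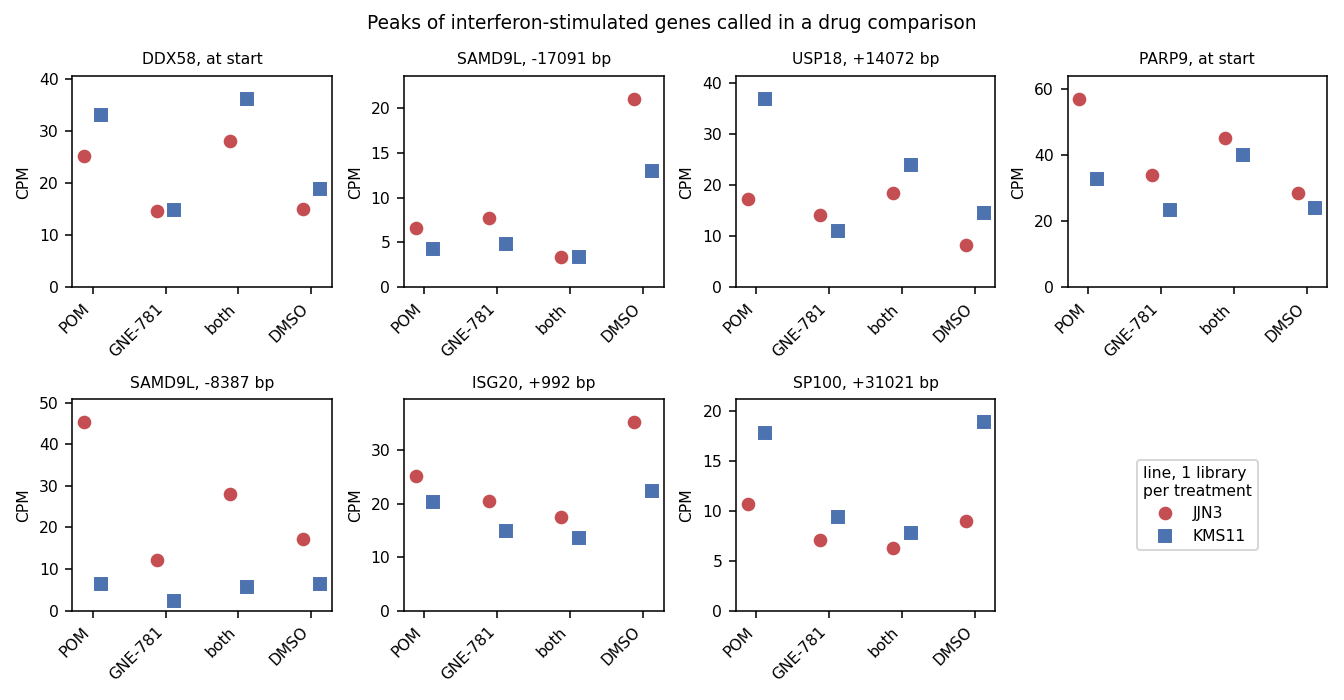
CPM in each library for the 7 peaks of interferon-stimulated genes called in any drug comparison, with treatments along each axis (POM is pomalidomide) and 1 point per line and treatment (red circles JJN3, blue squares KMS11). At DDX58 the pomalidomide and combination points (25.3 to 36.3 CPM) lie above all others (14.7 to 18.9 CPM), and at the SAMD9L peak 17091 bp upstream the DMSO points lie above the rest.

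Promoter peaks leaned upwards by small amounts, most of which did not pass the test. Over the 4 libraries with the drug against the 4 without, the 42 promoter peaks had a median change of 0.10, with 32 (76.2%) above 0, beside a median of 0 and 50.2% for all promoter peaks, and 2 passed the test (4.76%, beside 2.13% of all promoter peaks). The 33 distal peaks had a median of -0.03, with 16 (48.5%) above 0, beside -0.02 and 48.5% of all distal peaks. In both lines without overlap, 9 of the 75 peaks were higher in the libraries with pomalidomide (12%, beside 7.12% of all peaks) and 6 were lower (8%, beside 4.78%). The 9 were the promoters of ISG15, ADAR, IFI44L, MX2, PARP9 and DDX58 and distal peaks of USP18, SP110 and IRF2. The 6 lower ones were all distal, nearest to ISG20, IFIH1, PARP9, IRF2, SAMD9 and SAMD9L. For this rule no share was counted over all promoter or all distal peaks, so the split by class cannot be judged.

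By role, the 14 peaks of the transcription factors STAT2, IRF1, IRF2, IRF7 and IRF9 held 0 calls in the libraries with pomalidomide, with changes of -0.72 to 0.55 (edgeR, beside 5.28% of all peaks called). At an unadjusted p under 0.05 there were 3 of 14, beside 17.1% of all peaks. The only STAT2 peak lies 918 bp past the start. A peak near the RefSeq start of STAT2 is annotated to APOF and was not followed. The next 3 groups held 1 higher call each, beside 3.93% of all peaks, and counts of 1 in so few peaks say nothing about a group. The RNA sensors held theirs of 3 peaks, DDX58, while the promoter of IFIH1, the sensor MDA5, gave -0.02 (adjusted p = 0.975). Of the 10 peaks of USP18, ISG15, UBE2L6, HERC5 and HERC6, 1 was higher, the USP18 peak, and the promoter of ISG15, a ubiquitin-like modifier, gave 0.24 (adjusted p = 0.587). PARP9, PARP14 and DTX3L had 1 higher call of 6 peaks. Among direct effectors, the MX2 promoter, a GTPase that blocks nuclear import of viral genomes, gave 0.50 (adjusted p = 0.167), OAS1, which activates RNase L, 0.53 (adjusted p = 0.246), and BST2, the tetherin that holds virions at the surface, 0.15 (adjusted p = 0.727). None of these 3, all above 0, passed. Effector promoter peaks below 0 included MX1 at chr21:41425970-41426344 (-0.22), ISG20 at 992 bp (-0.23) and SAMD9 (-0.10), which did not pass either. The 5 MX peaks had a median of -0.22, with 2 (40%) above 0, beside 48.9% of all peaks. In the list of 20 peaks that holds BST2, ISG20 and SAMD9, the median was 0.03, with 13 (65%) above 0. Its 1 higher and 1 lower call (10%, beside 5.28%) were the peaks upstream of SAMD9L.

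Summed over all its peaks, DDX58 rose by 0.96 ± 0.17 (adjusted p = 0.000307) and USP18 by 0.62 ± 0.15 (adjusted p = 0.0113) in the libraries with pomalidomide, 2 of the 36 genes, beside 3.5% of 25121 gene entries. DDX58 has a single peak, so its sum is the promoter peak over again. The 3 USP18 peaks together had 29 CPM with pomalidomide and 47.5 with both drugs in JJN3, against 32 with GNE-781 and 20.7 with DMSO, where the groups overlapped. In KMS11 they had 60.8 and 52.7 CPM with pomalidomide and with both drugs, against 32.1 with GNE-781 and 37.6 with DMSO. With both drugs against DMSO the same genes were called, DDX58 at 0.92 (adjusted p = 0.0182) and USP18 at 0.72 (adjusted p = 0.0476), beside 3.42% of all entries. The USP18 call with pomalidomide was lost without the JJN3 library of the combination or the KMS11 pomalidomide or GNE-781 library, and its change ranged over 0.37 to 0.80 with 1 library left out (adjusted p up to 0.431). With both drugs neither gene was called without the KMS11 DMSO library or either library of the combination, and USP18 was also lost without the JJN3 DMSO library (0.53 to 1.07, adjusted p up to 0.377). Over the 36 genes the median change with pomalidomide was 0.14, beside -0.02 for all entries.

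Promoters were also set apart by the response element. All promoter peaks of a gene were grouped by 1 window, even where a peak lies outside it, as at IFITM3, STAT2, SAMD9L and the ISG20 peak at 992 bp. In the 4 libraries with pomalidomide against the 4 without, the 18 promoter peaks of the 15 genes whose window holds the core had a median of 0.12, with 13 above 0. The 19 of the 15 genes whose window does not had a median of 0.06, with 15 above 0, beside 50.2% of all promoter peaks. Each set held 1 call, PARP9 with the element and DDX58 without it, beside 2.13% of all promoter peaks. For pomalidomide alone against DMSO the medians were 0.12 with the core and 0.11 without it, and edgeR called 0 of the 42 promoter peaks (0 with DESeq2). No test was made of this difference.

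In the 4 libraries with GNE-781, set against the 4 without it, 1 of the 75 peaks was lower and 0 were higher (1.33%, beside 0.628% of all peaks in either direction). That peak lies 31021 bp into SP100, a gene of nuclear bodies that restrict DNA viruses, at chr2:230447777-230448413. It had 7.05 CPM with GNE-781 and 6.30 with both drugs in JJN3, against 10.7 with pomalidomide and 9.02 with DMSO. In KMS11 it had 9.38 and 7.84 CPM with GNE-781 and with both drugs, against 17.8 with pomalidomide and 18.9 with DMSO. The groups were apart within each line, and the change was -0.93 ± 0.24 (adjusted p = 0.0415). The farther SAMD9L peak (-0.99 ± 0.29, adjusted p = 0.0869), the ISG20 peak at 992 bp (-0.61 ± 0.18, adjusted p = 0.102) and an IRF2 peak 52689 bp into the gene (-0.54, adjusted p = 0.143) did not pass. The SP100 call held only without the JJN3 DMSO or the JJN3 GNE-781 library, and in the first case 2 peaks were called. It was lost with library totals and with cyclic loess offsets. The median change was -0.04 for promoter and -0.16 for distal peaks, beside -0.01 and -0.02 for all. In both lines without overlap, 2 peaks were higher with GNE-781 (2.67%, beside 4.03% of all peaks) and 6 were lower (8%, beside 4.28%).

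The lines themselves differed at more of these peaks. Of the 75 peaks 16 passed both an adjusted p under 0.05 and a 2-fold change (21.3%, beside 31.9% of all peaks), 10 higher in JJN3 and 6 lower. Promoter peaks gave 21.4%, beside 21.7% of all promoter peaks, and distal peaks 21.2%, beside 35.4%. With library totals the split was 10 and 9. The CMPK2 promoter was low in JJN3, with 6.66 CPM under pomalidomide, 6.41 under GNE-781, 0.970 under both and 6.01 under DMSO, against 31.5, 25.5, 37.4 and 36.0 CPM in KMS11 in the same order (-2.70 ± 0.25, adjusted p = 2.07e-14). The value under both drugs in JJN3 rests on 2 counts. CMPK2 lies beside RSAD2, the gene of the antiviral enzyme viperin, whose own promoter gave -0.57 (adjusted p = 0.0243). Also lower in JJN3 were a peak 1096 bp upstream of ADAR, the RNA-editing enzyme (-2.05 ± 0.40, adjusted p = 1.16e-05), the SP110 promoter (-1.55 ± 0.31, adjusted p = 2.27e-05) and the MX1 promoter peak at chr21:41425970-41426344 (-1.48 ± 0.32, adjusted p = 6.32e-05). The ADAR peak had 1 count in each of the JJN3 libraries with GNE-781 and with DMSO.

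Higher in JJN3 was first the SAMD9L peak 8387 bp upstream, with 45.3, 12.2, 28.1 and 17.3 CPM in JJN3 under pomalidomide, GNE-781, both and DMSO, against 6.43, 2.26, 5.70 and 6.47 CPM in KMS11 (2.29 ± 0.24, adjusted p = 8.42e-13). A promoter peak of IFI16, a sensor of DNA, had 18.0 to 22.0 CPM in JJN3 and 3.64 to 5.69 CPM in KMS11 (2.12 ± 0.25, adjusted p = 4.18e-11), while the peak at another start of the same gene gave 0.05 (adjusted p = 0.853). The promoter peak that the authors' annotation gives to IFITM3, which blocks fusion of viruses with endosomes, had 15.4 to 22.7 CPM in JJN3 and 4.14 to 7.11 CPM in KMS11 (1.80 ± 0.24, adjusted p = 4.18e-09). It lies at chr11:327128-327520, upstream of the RefSeq gene, and 0 peaks lay at the RefSeq start. A peak 30021 bp from the start of PARP9 followed, with 11.6 to 21.2 CPM in JJN3 and 3.38 to 6.79 CPM in KMS11 (1.66 ± 0.26, adjusted p = 1.19e-07). None of these 3 ranges overlapped between the lines.

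**Figure D4:**
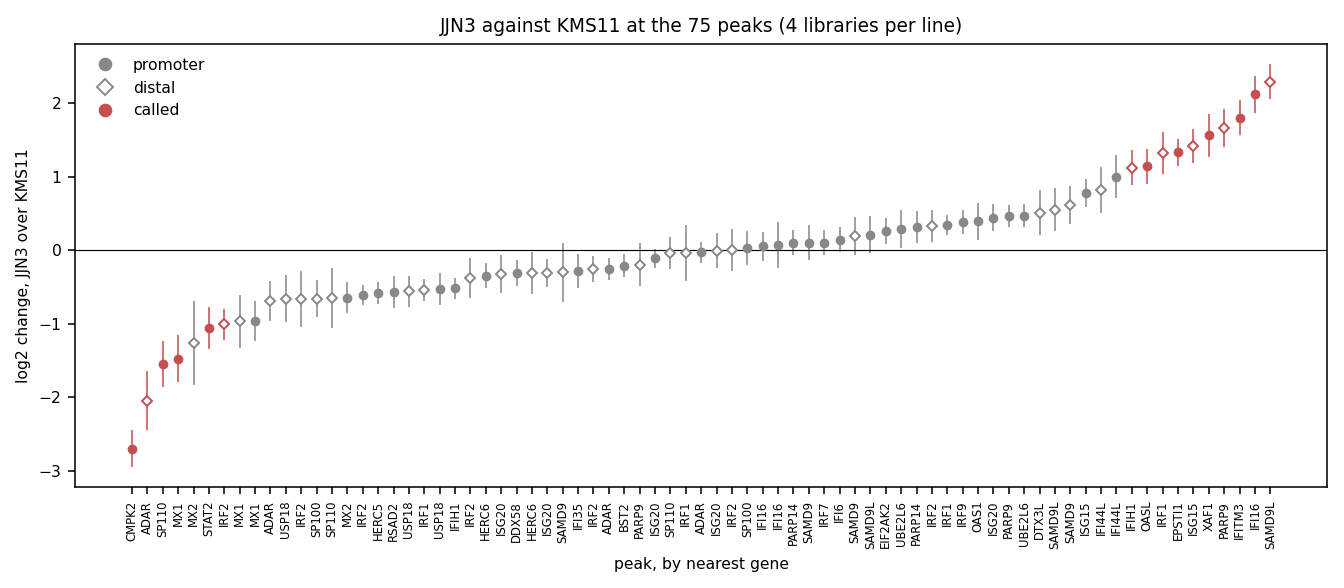
Log2 change of JJN3 over KMS11 at each of the 75 peaks, in order, with bars of ± 1 SE, filled points for promoter peaks, open points for distal peaks and red for the 16 peaks past both thresholds. The ends are CMPK2 at -2.70 and SAMD9L at 2.29.

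Whether pomalidomide acted differently in the lines was asked by an interaction term, which called 0 of the 75 peaks in edgeR, beside 0.0675% of all peaks. At an unadjusted p under 0.05 there were 12 of the 75, a larger share than the 7.99% of all peaks, and DESeq2 also called 0. The lowest p-values were those of the IRF2 peak 52689 bp into the gene (1.03 ± 0.31, JJN3 minus KMS11, adjusted p = 0.209), the MX1 promoter peak at chr21:41419997-41420803 (-1.52 ± 0.47, adjusted p = 0.235) and the SAMD9 promoter (-1.22 ± 0.41, adjusted p = 0.31). At the MX1 peak, JJN3 had 6.33 CPM with pomalidomide and 7.76 with both drugs, against 5.13 with GNE-781 and 16.5 with DMSO, and KMS11 had 21.9 and 19.8 CPM, against 12.6 and 9.84. With 2 residual degrees of freedom these misses do not show that the lines respond alike.

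The rest of the interferon pathway was followed in the same way, over lists that hold none of the 47 genes and were also drawn up with earlier results of these data known. Of 52 peaks of the interferon receptors and the JAK-STAT genes (15 genes, all with a peak), 6 were higher and 1 lower in the libraries with pomalidomide (13.5%, beside the 5.28% of all peaks). Most of these calls were distal, 5 higher and 1 lower of 34 distal peaks (17.6%), and such peaks are tied to a gene by nearness only. Of the 18 promoter peaks 1 was higher (5.56%, beside 2.13% of all promoter peaks). A peak 64489 bp upstream of IFNGR1, the ligand-binding chain of the interferon gamma receptor, had 21.3 CPM with pomalidomide and 20.8 with both drugs in JJN3, against 8.34 with GNE-781 and 13.5 with DMSO. In KMS11 it had 34.1 and 20.7 CPM, against 7.44 and 11.1 (1.33 ± 0.21, adjusted p = 1.36e-05), without overlap in either line. A peak 58988 bp from the start of STAT3 rose by 1.90 ± 0.46 (adjusted p = 0.00502), with 0 counts in the JJN3 library with GNE-781, and one beside PTPN6, a phosphatase that dampens JAK signalling, by 0.80 ± 0.18 (adjusted p = 0.00269). A peak in JAK1 fell by 1.14 ± 0.27 on the log2 scale (adjusted p = 0.00461).

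Of 9 peaks of the interferon genes themselves, 0 were called (edgeR, 1 at an unadjusted p under 0.05, beside 17.1% of all peaks). In nucleic acid sensing 2 of 35 peaks were higher and 0 lower (5.71%, beside the 5.28% of all peaks), the promoter of TMEM173, which encodes STING, at 0.74 ± 0.16 (adjusted p = 0.0012) and a peak in TRAF3 at 0.84 ± 0.27 (adjusted p = 0.0495). Among 44 peaks of other interferon regulatory factors and their partners 5 were higher and 0 lower (11.4%, beside 5.28%), with the BATF2 promoter at 1.04 ± 0.25 (adjusted p = 0.00441), and the others nearest to IKZF1 (1 peak) and IKZF3 (3 peaks), whose proteins pomalidomide removes. Of 63 peaks of further interferon-induced effectors 4 were higher and 0 lower (6.35%, beside 5.28%), all of them promoters: PLSCR1, a phospholipid scramblase, at 0.77 ± 0.14 (adjusted p = 9.16e-05), LGALS3BP at 1.27 ± 0.28 (adjusted p = 0.00161), TREX1, an exonuclease that clears cytosolic DNA, at 0.54 ± 0.15 (adjusted p = 0.0248) and APOBEC3G, a cytidine deaminase, at 0.54 ± 0.16 (adjusted p = 0.0277). In PLSCR1 the libraries with pomalidomide had 90.6 and 66.4 CPM in JJN3 and 71.2 and 71.2 in KMS11, against 35.3 and 40.6 in JJN3 and 47.5 and 48.7 in KMS11 without it, and no value overlapped. With promoter and distal peaks counted as 1 set, the shares of the sensing and effector lists lie near that of all peaks. In the effector list 4 of the 25 promoter peaks were called (16%, beside 2.13% of all promoter peaks). Of these 25 peaks 21 (84%) had a change above 0, beside 50.2%. The 38 distal peaks of that list held 0 calls (edgeR, 5 at an unadjusted p under 0.05). In the sensing list 1 of 13 promoter peaks was called (7.69%). No test was made of these shares. Antigen presentation genes held 1 call of 29 peaks (3.45%, beside 5.28%), near GBP5 at 1.18 ± 0.37 (adjusted p = 0.0457). Their 16 promoter peaks went the other way from those of the effector list, with a median of -0.05 and 6 (37.5%) above 0, beside 50.2%. Of these 16, edgeR called 0, with 4 at an unadjusted p under 0.05.

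The same lists were set out for both drugs against DMSO, a comparison of 2 libraries with 2. In the receptor and JAK-STAT list 1 peak was higher and 1 lower (3.85%, beside the 4.79% of all peaks), in nucleic acid sensing 1 of 35 was higher (2.86%), and among the other regulatory factors 4 were higher and 2 lower of 44 (13.6%). Of the 63 peaks of the effector list 1 was higher and 1 lower (3.17%). Antigen presentation held 0 calls of 29 peaks and the interferon genes 0 of 9, by edgeR. For pomalidomide alone against DMSO, which shares the DMSO libraries, edgeR called 1.25% of all peaks. The receptor list held 2 higher calls of 52 peaks (3.85%) and the effector list 2 higher calls of 63 (3.17%). Both effector calls were promoter peaks, 2 of 25 (8%), and the share of all promoter peaks called in this comparison is not given here. There were 0 calls among the 35 peaks of the sensing list and the 44 of the other regulatory factors. Antigen presentation, with 29 peaks, and the interferon genes, with 9, also held 0. The BATF2 promoter had 24.7 CPM with both drugs in JJN3 and 15.3 in KMS11, against 9.77 CPM with DMSO in JJN3 and 3.11 in KMS11 (1.84 ± 0.35, adjusted p = 0.000571). The IRF5 promoter had 32.0 CPM with both drugs in JJN3 and 11 in KMS11, against 59.4 and 19.9 CPM in the DMSO libraries of JJN3 and KMS11 (-0.87 ± 0.23, adjusted p = 0.0174). Both lines moved the same way in each gene. The JAK1 peak fell by 1.66 ± 0.39 on the log2 scale (adjusted p = 0.00545).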

How the data were processed

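ATAC-seq was done on JJN3 and KMS11 cells under 4 treatments, 1 library each. The values are read counts per peak that the authors deposited as 1 table over a union of MACS2 peaks called at a q of 0.01, per the file headers and the table's name, with the nearest GRCh38 transcript start of each peak. Per the submitters' processing notes reads were handled with Bowtie2 2.3.5.1 (GRCh38), MACS2 2.1.1.20160309, SAMtools 1.10, cutadapt 2.5 through Trim Galore 0.6.4, and R 4.1.2. Whether duplicates were removed, read ends shifted for the transposase, and reads or fragments counted is not given in the sources used here. PCR copies, if kept, would make the counting error seem too small.

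Counts were analysed in R 4.3.3 with edgeR 4.0.16 (TMM scaling, a mean of at least 2 CPM, quasi-likelihood test, Benjamini-Hochberg adjustment over 62234 peaks, 294 being removed by the filter). Over all 8 libraries, the model fitted 1 effect for each treatment, with lines as blocks. It left 3 residual degrees of freedom, against 62.8 borrowed from all peaks, so the spread is the disagreement between lines, pooled over peaks. The fit of line dependence had 2. The line comparison also asked for a 2-fold change. Log2 ratios within a line used a prior count of 2. The alternatives were DESeq2 1.42.0, limma 3.58.1 for loess offsets, other scalings and filters, no line block, and each library left out. Figures used Python 3.11.15 with matplotlib 3.10.9.

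The 47 genes and all other lists were chosen with earlier results of these data known. Peaks named with all values were those called in a drug comparison, the 3 of lowest p where fewer than 3 were called, the 5 highest and 5 lowest promoters, the 4 largest line differences each way and the 3 lowest p-values for line dependence, with up to 5 peaks in each other list. Promoter windows shown were those of genes with a called promoter peak, then those holding the core of the response element by level, up to 8. Other peaks named as examples of a role were picked after their values were seen. Some peaks counted in the lists are not reported here by name.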

Additional observations from a re-analysis of the deposited data

How the results depend on the processing

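Of 137 alternatives computed for counts of called peaks or genes, 101 stayed within 1.5-fold of the value reported, matches of 0 with 0 included. Direction was followed only for the single peaks and gene sums called in a drug comparison, and it reversed in 0 alternatives. DESeq2's Wald test called 0 peaks of interferon-stimulated genes for pomalidomide against DMSO (2 in edgeR), 1 for both drugs (4), 1 for the libraries with pomalidomide (5) and 0 for those with GNE-781 (1). It called 1 gene sum with pomalidomide (2) and 0 with both drugs (2). Over all peaks the counts were 74 with DESeq2 and 780 with edgeR for pomalidomide, 394 and 2979 for both drugs, 618 and 3289 for the libraries with pomalidomide, and 33 and 391 for those with GNE-781. Without the line block every one of these counts, over these genes and over all peaks, was 0. With library totals or cyclic loess offsets the count for the libraries with GNE-781 was 0. Leaving out each library in turn gave 0 to 2 peaks for pomalidomide, 1 to 5 for both drugs, 3 to 5 for the libraries with pomalidomide, 0 to 2 for those with GNE-781 and 14 to 20 for the lines, with 1 to 2 gene sums for the libraries with pomalidomide and 0 to 2 for both drugs. Where that leaves a treatment with 1 library, it is assumed to vary like the others. With promoters set at 500 bp the ISG20 peak at 992 bp counts as distal. Depth limits the JJN3 libraries with GNE-781 and with DMSO most, which hold the fewest counts of the 8.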

Other observations

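Of the 11 interferon-stimulated genes that the authors' annotation names for no peak, 5 have a peak inside their RefSeq gene that is annotated to another gene: LIPA for IFIT1, IFIT2, IFIT3 and IFIT5, which lie beside it, and RP1-71H24.1 for OAS2. The peak over the RefSeq start of IFIT1, chr10:89392381-89392731, had 13, 14.1, 11.6 and 12.8 CPM in JJN3 with pomalidomide, GNE-781, both drugs and DMSO, against 5.79, 6.79, 6.59 and 4.66 CPM in KMS11. That of IFIT5, chr10:89414285-89415333, had 38.7, 36.5, 26.2 and 25.6 CPM in JJN3 and 18.9, 22, 15.3 and 23.3 CPM in KMS11 in the same order. In edgeR none of these peaks was called in a drug comparison, and IFIT1's gave 0.02 ± 0.25 and IFIT5's -0.21 ± 0.17 for the libraries with pomalidomide against those without (adjusted p = 0.985 and 0.607). All 7 of the 11 genes that have a promoter window in RefSeq hold the core of the response element there.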
